A study of Solanum lycopersicum with 24 samples.

Results

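The genes described here are 100 tomato genes whose mRNA level in anthers was lower at the free microspore stage than at both neighbouring stages of normal development. The members were chosen by their mean FPKM (reads scaled for gene length and for library size) in the control libraries. A gene was eligible when the lower of its tetrad and polarized microspore means was at least 5 FPKM, which 11629 of the 35768 listed genes met. Eligible genes were ranked by a dip score, the log2 ratio of that lower outer mean plus 1 to the free microspore mean plus 1, and the 100 with the highest scores were kept. A score above 0 means a dip, and 1837 eligible genes had one.

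Male development in an anther passes through recognisable steps. In tetrads, microspores fresh from meiosis are still held in a common callose wall, and free microspores appear when that wall is dissolved. Microspores then enlarge, become polarized as the nucleus moves to one side, and divide asymmetrically to give pollen. The tapetum, the innermost layer of the anther wall, feeds the microspores during this time and is later broken down. An anther library mixes RNA from microspores, tapetum and outer wall, so that fewer cells of a type and less RNA per cell cannot be told apart.

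All plants were Solanum lycopersicum cultivar Micro-Tom, a dwarf tomato, with no transgene or mutation given. Control plants (CT) stayed in cabinets with 25 °C days, 19 °C nights and 50% relative humidity. Plants under long-term mild heat (LTMH) were moved at flowering to 34 °C days, 28 °C nights and 68% relative humidity, so that humidity changed together with temperature. Tetrad anthers were taken after 4 days, free microspore anthers after 6 days and polarized microspore anthers after 8 days, with 4 libraries per group and 6 pooled anthers per library. Whether replicate libraries stand for different plants is not in the labels, so p-values measure only how these libraries spread, which may be technical. Library totals ran from 15657765 to 22987661 reads in genes. Tetrad CT replicates 1 and 2 were the most alike pair of any group, with a chi-square per degree of freedom of 4.43 against 35.8 to 52.5 for the other tetrad CT pairs. They differed by more than sampling noise and were counted as 2 samples, but whether they share a source is not in the labels, and the tetrad CT libraries would then be fewer than 4 independent samples. Polarized microspore CT replicate 4 stood apart in the values of several members, as given beside them.

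The files do not pair the identifiers with gene names, and the reference table at hand (assembly SLM_r2.1) matched 0 of them. Genes are therefore given by identifier, without function, and the anther label could not be checked against marker genes.

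In CT the members formed a clear trough, which is the property they were chosen by and is given as a description. The median member had 21.3 FPKM at the tetrad, 11.8 FPKM at the free microspore and 19.4 FPKM at the polarized microspore stage. Levels at the trough spanned 2.35 to 245 FPKM over the members. Scores ran from 1.83 down to 0.43 with a median of 0.53, so most dips were shallow. The members just inside the limit scored 0.44 (rank 99) and 0.43 (rank 100), and the next gene outside scored 0.43 (rank 101). At rank 100 the CT means were 7.99, 5.67 and 8.34 FPKM in stage order, and at rank 101 they were 107.1, 77.4 and 104.4 FPKM. In 59 members every free microspore CT library lay below every tetrad and every polarized CT library, as in 1.23% of all genes tested. In the edgeR fit of all libraries, 91 members were called lower for the CT step from tetrads to free microspores (21.6% of all genes). A total of 77 were called higher for the CT step from free to polarized microspores (19.6%), and 70 were called in both steps (1.60%). The rule used these same contrasts, so nothing is read from these counts. Throughout, calling a gene required a Benjamini-Hochberg adjusted p under 0.05 over 21429 genes tested.

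**Figure D1:**
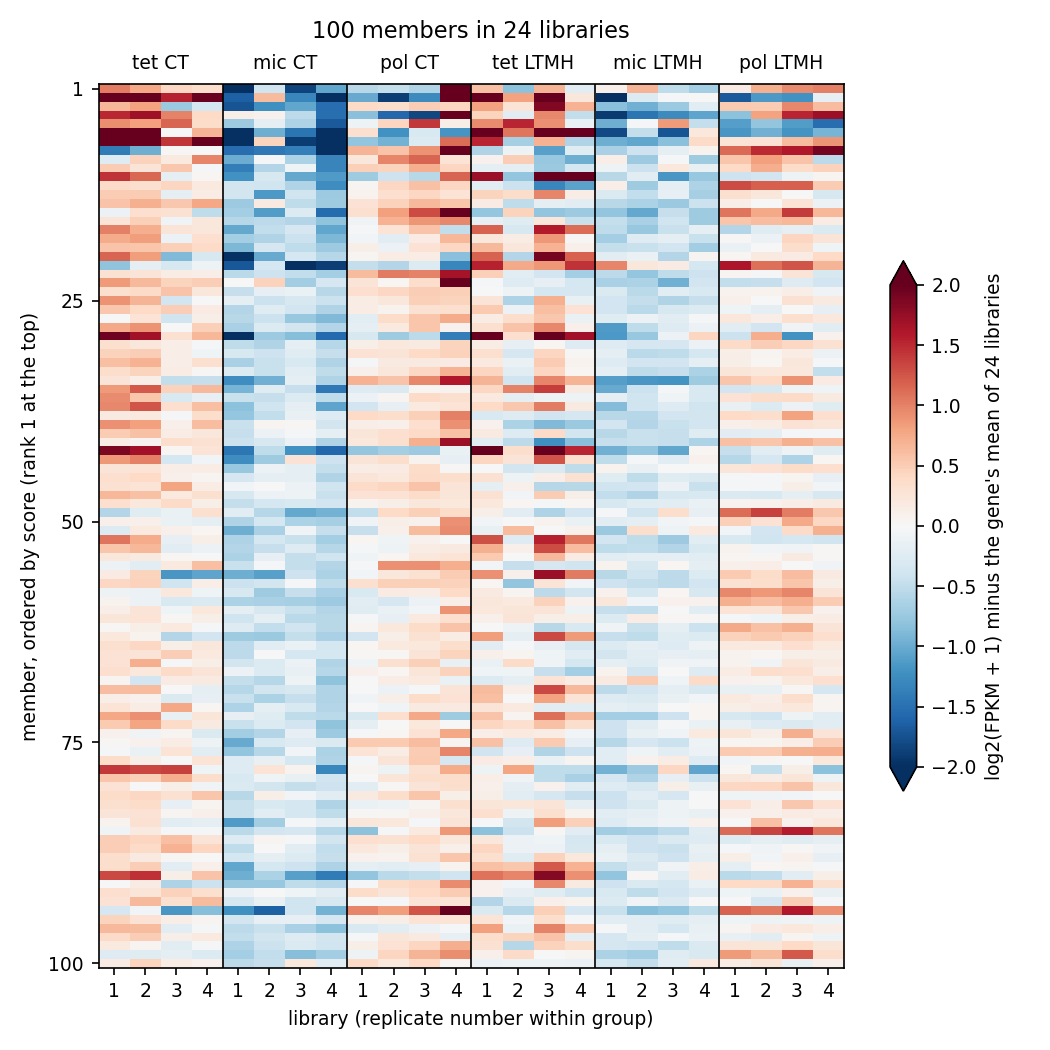
Each row is a member in order of score and each column a library, with colour giving log2(FPKM + 1) minus the gene's mean of the 24 libraries. The free microspore CT columns are mostly blue, the free microspore LTMH columns are paler, and polarized CT replicate 4 is dark red for several of the highest ranks.

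Among the 4 highest ranks, the scores of ranks 1, 2 and 4 rested largely on 1 library. Solyc01g104100.3, ranked 1, had 69.7, 58.3, 45.7 and 43.3 FPKM in the tetrad CT libraries and 5.90, 25.6, 8.68 and 16.0 FPKM in the free microspore CT libraries. At the polarized stage it had 22.8, 24.2, 21.9 and 141 FPKM, so that CT replicate 4 lay far above the other 3 libraries. Without that library its score was 0.67 instead of 1.83.

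Solyc10g085640.1, ranked 2, had 39.7, 32.2, 20.1 and 27.6 FPKM in the tetrad CT libraries and 1.34, 10.2, 1.93 and 0.335 FPKM in the free microspore CT libraries. Its polarized CT libraries had 2.59, 0.974, 1.98 and 48.2 FPKM. Without polarized CT replicate 4 the score was -0.65, so the gene was no longer lowest at the free microspore stage. Solyc07g064450.3, ranked 4, had 1.54, 0.529, 0.275 and 41.2 FPKM in the polarized CT libraries, and its score turned from 1.56 to -1.02 without replicate 4.

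Solyc03g026120.3, ranked 3, did not depend on that library. Its tetrad CT libraries had 12.6, 13.9, 4.13 and 5.69 FPKM, its free microspore CT libraries 1.61, 2.65, 3.18 and 1.98 FPKM, and its polarized CT libraries 10.2, 9.96, 11.1 and 10.6 FPKM. Every free microspore value lay below every value of the outer stages, and the score of 1.59 was the same without replicate 4. Over all members, polarized CT replicate 4 was the highest of its group in 59. A list drawn up without it shared 84 of 100 genes with the members, and lists drawn up without any other single CT library shared 81 to 93. Without replicate 4, Solyc06g076490.3, Solyc03g120860.2, Solyc02g084600.3 and Solyc09g011650.3, described below, fell from 0.58, 0.70, 0.56 and 0.46 to 0.37, 0.31, 0.39 and 0.29. These scores lay below the lowest score of that list, 0.41. Scores of Solyc08g078695.1, Solyc02g081190.3 and Solyc10g055420.2 rose, to 0.92, 1.43 and 1.44. Polarized CT replicate 4 was not low in depth, with 18638171 reads.

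**Figure D2:**
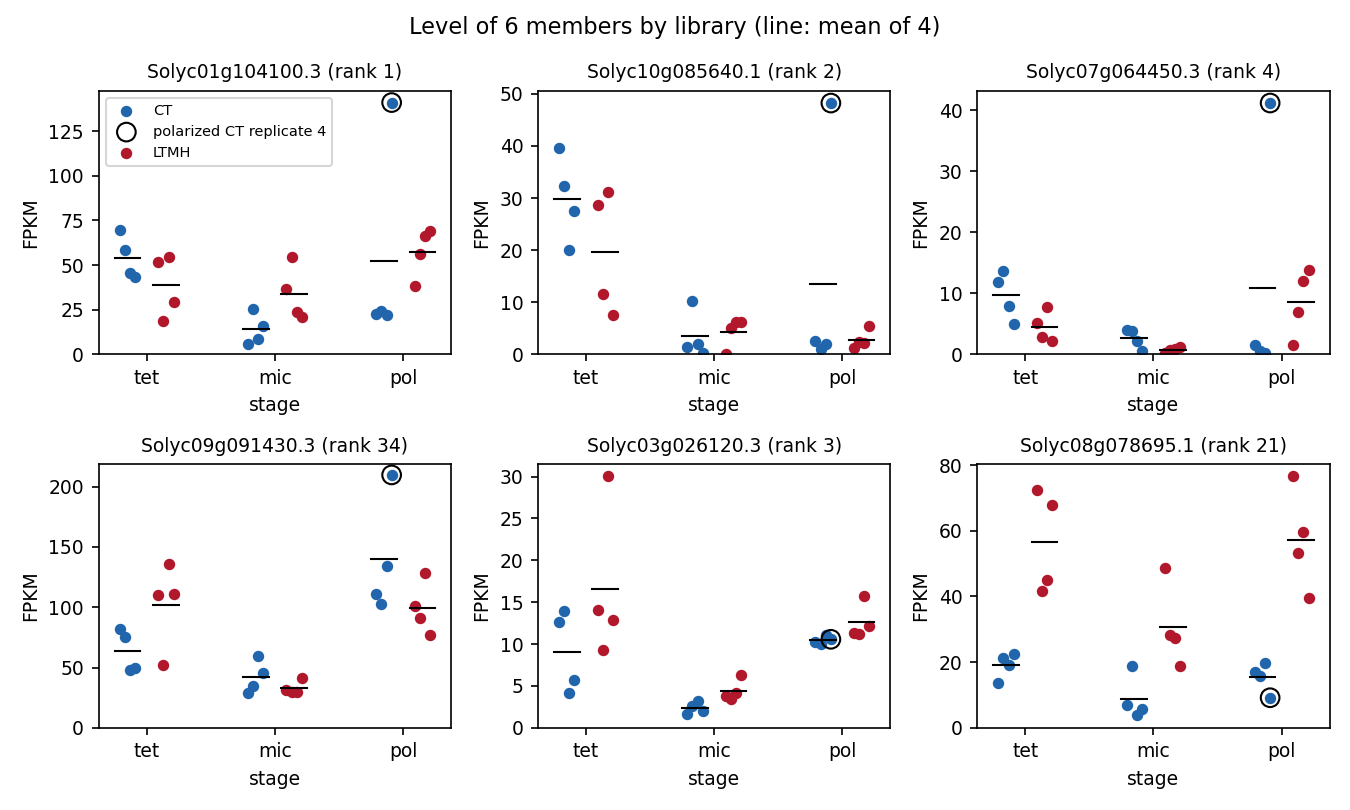
FPKM of 6 members by stage (tet, mic and pol stand for tetrad, free microspore and polarized microspore), with 1 point per library and a line at the mean of 4 libraries. Polarized CT replicate 4, circled, reaches 141, 48.2 and 41.2 FPKM in the members of rank 1, 2 and 4 and lies among the other libraries, at 10.6 FPKM, in the member of rank 3.

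Each free microspore CT library was also set against genes chosen without it. When free microspore CT replicate 1 was left out of the rule, 89 of the 100 genes then chosen were lower in that library than their lower outer mean, against 19.1% of all eligible genes. The counts were 83 for replicate 2 (23.2% of eligible genes), 91 for replicate 3 (21.1%) and 99 for replicate 4 (21.1%). Median scores of the library left out were 0.57, 0.36, 0.39 and 0.66 for replicates 1 to 4. The tetrad and polarized means in these scores were those that chose the genes. The comparison is therefore independent on the free microspore side only and does not test the trough as a whole.

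As a group the members took less of the free microspore libraries at both temperatures. They held 0.832 ± 0.0844% of reads in tetrad CT, 0.489 ± 0.0498% in free microspore CT and 0.827 ± 0.0949% in polarized CT libraries (SD, n = 4 each). Under LTMH, which the rule did not use, the shares were 0.779 ± 0.141%, 0.524 ± 0.0264% and 0.773 ± 0.0552% (SD, n = 4 each). The 4 free microspore LTMH libraries held 0.524, 0.487, 0.540 and 0.546%, below every tetrad LTMH library (0.626 to 0.922%) and every polarized LTMH library (0.704 to 0.839%).

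**Figure D3:**
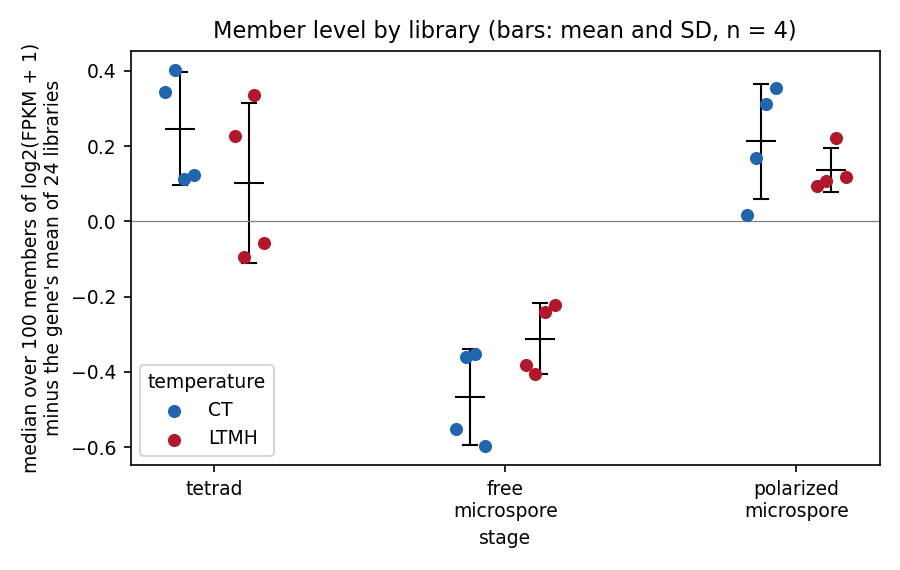
Each point is a library and shows the median over the 100 members of log2(FPKM + 1) minus the gene's mean of 24 libraries, with black bars for the mean and SD of 4 libraries. Free microspore libraries lie between -0.60 and -0.35 in CT and between -0.40 and -0.22 in LTMH, below all libraries of the outer stages.

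Free microspore libraries differed in how far they had moved along development, and this is set beside the member levels. Position was measured on the line from the tetrad CT mean (0) to the polarized CT mean (1) over 6083 genes other than the members. Free microspore CT replicates 1 to 4 lay at 0.335, 0.236, 0.524 and 0.642, with member medians of -0.55, -0.36, -0.35 and -0.60 on the scale of the plot of member levels. The LTMH replicates lay at 0.766, 0.426, 0.362 and 0.438, with member medians of -0.38, -0.40, -0.24 and -0.22. The part that position has in the results was not tested.

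The LTMH libraries asked whether the same genes dip under heat, and most members kept the direction of the dip. The score computed from LTMH means was above 0 for 82 members, against 16.2% of the eligible genes. Its median was 0.20 over the members and -0.16 over the eligible genes. It exceeded the CT score in 10 members. The CT score is the value that chose them, so nothing is read from which of the scores was higher. An LTMH score as high as the lowest member's CT score was reached by 21 members and by 0.344% of eligible genes.

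**Figure D4:**
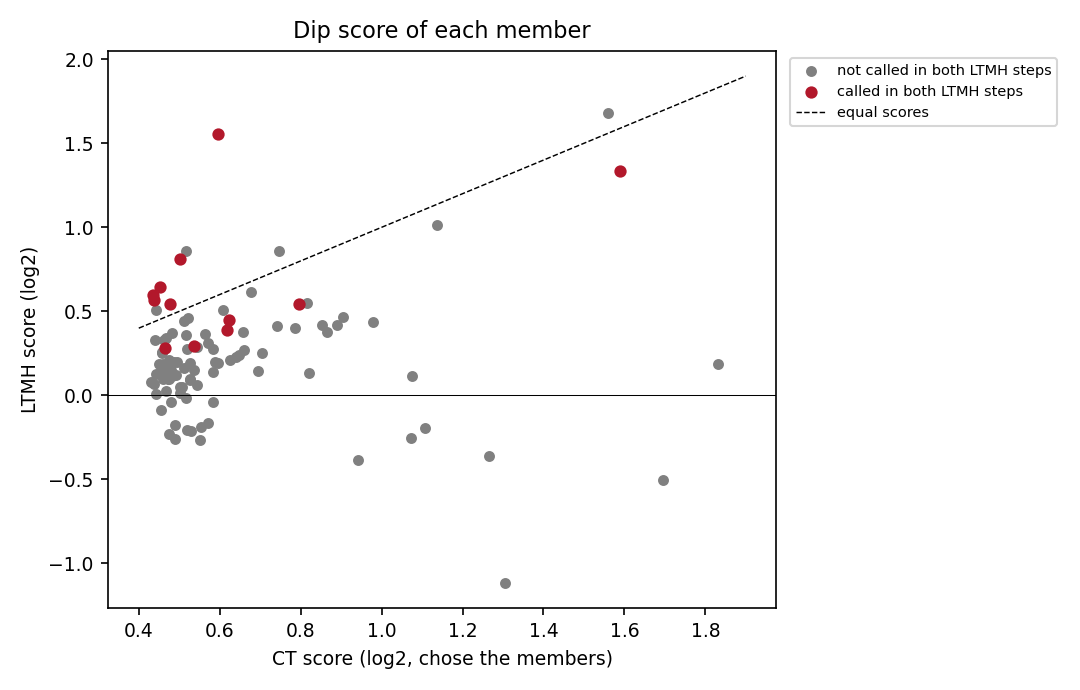
Each point is a member, with the CT score that chose it on the x axis and the score from LTMH libraries on the y axis, both log2, and a dashed line at equal scores. Most points lie above 0 and below the line, with 82 members above 0 and 10 above the line, and the 12 members called in both LTMH steps are red.

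Tested one gene at a time, a dip under LTMH was called for 12 members. From the tetrad to the free microspore stage in LTMH, 42 members fell and 0 rose in edgeR (12.4% and 8.95% of all genes). DESeq2 and limma also called 0 higher, and 0 had an unadjusted p under 0.05 in that direction in edgeR, while 12 had a positive fitted change. From the free to the polarized microspore stage 39 rose and 1 fell (12.1% and 13.9%). The 12 members were called in both steps in the direction of the dip, as were 0.289% of all genes and 0.421% of eligible genes. Another 30 were called only for the fall, 27 only for the rise, and 31 for neither. The counts for only the fall, only the rise and neither stand without the share over all genes, so nothing is read from them. Fitted changes pointed towards a dip in both steps for 82 members, against 15.6% of all genes. Median log2 changes of the members were -0.50 and 0.41, beside 0.03 and -0.02 over all genes tested. On the FPKM scale, 33 members had every free microspore LTMH library below every tetrad LTMH library (11.1% of all genes), and 60 had every polarized LTMH library above every free microspore LTMH library (15.1%). In 18 members every free microspore LTMH library was below all libraries of both outer LTMH groups, as in 0.485% of all genes. DESeq2 called a dip in 19 members. The count was 6 without free microspore LTMH replicate 2, 7 without free microspore replicate 3, 7 without polarized replicate 3 and 20 without tetrad replicate 4, all LTMH. Counts from these other fits stand without the share over all genes.

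The 12 members called in both LTMH steps came from ranks 3 to 99. A dip was also called in CT for 11 of them, and 9 had no heat call at any stage, against 64.9% of all genes. Their falls ranged from -0.32 to -1.94 and their rises from 0.29 to 1.59 on the log2 scale. The pair of these with the highest LTMH scores is given next, chosen after their values were seen.

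Solyc09g091430.3, ranked 34, had 110.3, 51.7, 135.5 and 110.6 FPKM in the tetrad LTMH libraries. It had 31.4, 29.9, 29.4 and 41.5 FPKM in the free microspore and 100.9, 90.9, 128.2 and 76.9 FPKM in the polarized LTMH libraries. No free microspore library overlapped the outer stages. It fell by 1.64 ± 0.30 (SE) on the log2 scale (edgeR adjusted p = 0.000917) and then rose by 1.59 ± 0.30 (adjusted p = 0.000964). In CT its means were 63.9 ± 17.4, 41.9 ± 13.5 and 139.5 ± 48.6 FPKM (SD, n = 4 each), and it was not called in both CT steps. The CT rise was called (log2 change 1.69 ± 0.30 SE; edgeR adjusted p = 0.00022), while the CT fall was not (-0.72 ± 0.29 SE; adjusted p = 0.0554). Its heat effect at the free microspore stage was not called different from that at the tetrad or polarized stage (edgeR adjusted p = 0.449 and 0.973).

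Solyc03g026120.3 had 14.02, 9.34, 30.1 and 12.9 FPKM in the tetrad LTMH libraries, 3.802, 3.42, 4.11 and 6.30 FPKM in the free microspore and 11.3, 11.2, 15.8 and 12.2 FPKM in the polarized LTMH libraries. The free microspore libraries again lay below all others. It fell by 1.94 ± 0.37 (SE) on the log2 scale (edgeR adjusted p = 0.00118) and then rose by 1.52 ± 0.36 (adjusted p = 0.00464). Both calls of both genes held in all 32 alternative fits.

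The largest LTMH fall belonged to Solyc10g055420.2, ranked 6. It had 133.8, 24.3, 251.8 and 107.6 FPKM in the tetrad LTMH libraries and 2.47, 7.68, 2.66 and 13 FPKM in the free microspore LTMH libraries. The groups did not overlap, although tetrad values spread widely (a log2 change of -4.36 ± 0.79 SE with an edgeR adjusted p = 0.000930). At the polarized stage it stayed low, with 4.41, 5.19, 4.26 and 5.38 FPKM (log2 change from the free microspore stage -0.41 ± 0.74 SE; adjusted p = 0.730). The LTMH course of this gene was a fall with no called return. Its CT return was not called either (log2 change 1.49 ± 0.78 SE; edgeR adjusted p = 0.134). The heat effect was not called different between the free microspore and polarized stages (adjusted p = 0.661).

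Solyc02g084600.3, ranked 42, followed with 70.1, 20.3, 126.3 and 46.8 FPKM in the tetrad and 7.59, 8.82, 7.14 and 16.2 FPKM in the free microspore LTMH libraries (a log2 change of -2.77 ± 0.50 SE with an edgeR adjusted p = 0.000940). Together with the gene of rank 6 it was highest in tetrad LTMH replicate 3 and lowest in replicate 2. In tetrad CT both were high in replicates 1 and 2, at 76.1 and 68.0 FPKM for Solyc10g055420.2 and 60.8 and 52.5 FPKM for Solyc02g084600.3. In replicates 3 and 4 they had 11.1 and 18.3 FPKM, and 16.2 and 19.1 FPKM. Replicates 1 and 2 are the pair of tetrad CT libraries that were most alike.

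Among rises in LTMH, Solyc07g064450.3 had 0.194, 0.646, 0.874 and 1.18 FPKM in the free microspore and 1.56, 6.93, 12.0 and 13.9 FPKM in the polarized LTMH libraries (a log2 change of 3.56 ± 1.21 SE with an edgeR adjusted p = 0.0363). The rise lost its call in 9 of 32 alternative fits, among them the replicate block and the omission of any free microspore LTMH library or of polarized LTMH replicate 2, 3 or 4 (log2 changes over all fits 2.23 to 3.91). Solyc11g011400.2, ranked 15, had 2.61, 2.04, 3.50 and 2.80 FPKM and then 12.1, 9.55, 15.3 and 8.81 FPKM in the same groups (log2 change 2.06 ± 0.44 SE; edgeR adjusted p = 0.00212). Its call held in all 32 fits. Its tetrad LTMH libraries were low, at 2.62, 7.42, 2.58 and 2.77 FPKM, and overlapped the free microspore libraries.

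The outer CT means were within 2-fold of each other in most members and further apart in a few. In CT the tetrad mean FPKM was higher in 52 members and the polarized mean in 48, with log2 ratios from -2.75 to 2.46 and a median of 0.03. FPKM carries no correction for composition. In the edgeR fit the CT change from tetrads to polarized microspores was negative in 69 members and positive in 31. Its median was -0.19 over the members, beside -0.01 over all genes tested. The outer CT means in FPKM lay within 2-fold of each other in 90 members. The tetrad mean was at least 2-fold above the polarized mean in 6, and the reverse held in 4. In LTMH libraries, 22 members were called higher and 24 lower in polarized microspore anthers than in tetrad anthers, against 25.5% and 27.4% of all genes. These shares are near those of all genes. Of the 6 members that were higher at the tetrad stage in CT, 5 were also called lower at the polarized stage in LTMH. Of the 4 with the higher polarized mean in CT, 3 were called higher in LTMH. Of the 12 members with a called LTMH dip, 11 were among the 90 with outer means within 2-fold and 1 was among the 4.

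The CT libraries of every stage entered the rule, which favours genes with low free microspore and high outer CT values. The heat effects that follow share these libraries and are given as descriptions, for the main fit beside the same share over all genes. Counts from other fits or lists stand without that share and show only how the member counts moved. They also share each gene's dispersion across stages.

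After 4 days of heat, in tetrad anthers, lower levels prevailed among the members. A total of 29 members were called lower and 3 higher in LTMH, against 12.9% and 8.23% of all genes tested. The median log2 change was -0.27 over the members and -0.01 over all genes. The balance depended on the scaling, with 24 lower and 6 higher under upper-quartile scaling, and 22 and 6 with limma fitted to log2(FPKM + 1) values. There, the all-gene median itself lay at 0.11. With 0.1 added instead of 1, limma called 20 lower and 6 higher. A fit of the 8 tetrad libraries alone called 19 lower and 1 higher. Without tetrad CT replicate 1 the test called 21 lower and 3 higher, and without replicate 2 it called 22 lower and 3 higher. Without tetrad LTMH replicate 4 it called 19 lower and 3 higher. In position between the tetrad and polarized CT means, tetrad CT replicates 1 to 4 lay at -0.046, -0.059, 0.037 and 0.068. Tetrad LTMH replicates 1 to 4 lay further along, at 0.103, 0.123, 0.136 and 0.290. The part that position has in the tetrad heat effect was not tested.

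Solyc06g076490.3, ranked 39, had the largest called decrease without overlap. It had 14.9, 13.9, 8.04 and 12.0 FPKM in tetrad CT and 7.99, 4.46, 3.56 and 4.06 FPKM in tetrad LTMH (log2 change -1.43 ± 0.25 SE; edgeR adjusted p = 0.000496). The highest LTMH value lay just below the lowest CT value. At the other stages its heat changes were -0.40 ± 0.25 and -0.26 ± 0.24 (SE) and were not called.

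Solyc03g117600.3, ranked 12, had 38.4, 36.9, 39.6 and 33.6 FPKM in tetrad CT and 24.9, 21.6, 11.3 and 13.4 FPKM in tetrad LTMH (a log2 change of -1.22 ± 0.27 SE with an edgeR adjusted p = 0.00316). Under LTMH it climbed from stage to stage, with means of 17.8 ± 6.50, 23.5 ± 6.80 and 63.3 ± 14.2 FPKM (SD, n = 4 each), where CT had a trough at 18.9 ± 4.95 FPKM between 37.1 ± 2.61 and 38.4 ± 5.85 FPKM. The last LTMH step was called (log2 change 1.42 ± 0.27 SE; edgeR adjusted p = 0.000981), while the earlier one was not (0.39 ± 0.26 SE; adjusted p = 0.299). Its heat effect at the free microspore stage was not called different from that at the tetrad or polarized stage (adjusted p = 0.178 and 0.797).

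Solyc08g078695.1, ranked 21, was the 1 member called higher at all 3 stages, as were 1.75% of all genes. It had 13.5, 21.3, 19.1 and 22.6 FPKM in tetrad CT and 72.3, 41.8, 45.0 and 67.8 FPKM in tetrad LTMH (log2 change 1.41 ± 0.39 SE; edgeR adjusted p = 0.0141). In free microspore anthers, CT libraries had 6.82, 18.7, 4.02 and 5.87 FPKM and LTMH libraries 48.8, 28.4, 27.4 and 18.8 FPKM (1.75 ± 0.40; adjusted p = 0.00983). At the polarized stage CT libraries had 17.1, 15.9, 19.9 and 9.17 FPKM and LTMH libraries 76.7, 53.4, 59.5 and 39.6 FPKM (1.88 ± 0.39; adjusted p = 0.00234). All LTMH libraries lay above all CT libraries at each stage, narrowly so at the free microspore stage. Its LTMH score was 0.86 beside a CT score of 0.75, but neither LTMH step was called (edgeR adjusted p = 0.107 and 0.0941). In CT the fall was called (adjusted p = 0.0202) and the rise was not (adjusted p = 0.142). Free microspore libraries overlapped those of the outer stages at both temperatures, so a trough was not established for this gene. When the 8 free microspore libraries were fitted by themselves, the heat call at that stage was lost at the same size of change (1.76 ± 0.54; adjusted p = 0.140).

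At the free microspore stage, after 6 days, the heat effect on the members was mostly small and positive. Fitted changes were positive in 69 members and negative in 31, with a median log2 change of 0.15 beside -0.02 over all genes. Calls were few, with 3 members higher and 1 lower against 4.21% and 4.61% of all genes. Upper-quartile scaling gave 4 higher and limma 5 higher, each without a lower call. The rule favours genes with low free microspore CT values, and its part in this median was not tested. Without polarized CT replicate 4 the test called 6 higher and 2 lower. Without free microspore LTMH replicate 2 it called 2 higher and 0 lower, and the list chosen without free microspore CT replicate 2 gave the same numbers.

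Solyc04g010140.1, ranked 68, had 6.34, 5.84, 8.47 and 4.82 FPKM in free microspore CT and 10.6, 13.7, 8.62 and 12.4 FPKM in LTMH (log2 change 0.76 ± 0.20 SE; edgeR adjusted p = 0.0227). The groups touched without overlapping. With 168 bases it was the shortest member, and its LTMH means of 9.28 ± 1.85, 11.3 ± 2.21 and 10.6 ± 1.006 FPKM (SD, n = 4 each) had no trough. The call was lost without free microspore CT replicate 2 or 4, without LTMH replicate 2, and in a fit of the 8 libraries alone (log2 changes over all fits 0.63 to 0.93).

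Solyc06g069530.3, ranked 92, was the member called lower, at 71.5, 77.5, 73.5 and 67.0 FPKM in CT and 62.6, 54.5, 59.8 and 65.3 FPKM in LTMH (a log2 change of -0.32 ± 0.10 SE with an edgeR adjusted p = 0.0495). It was no longer called in 23 of 32 alternative fits, with log2 changes between -0.37 and -0.25. The gene was also called lower at the tetrad (-0.68 ± 0.10 SE; edgeR adjusted p = 0.000157) and the polarized microspore stage (-0.47 ± 0.10 SE; adjusted p = 0.00303).

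At the polarized microspore stage, after 8 days, 11 members were called lower and 5 higher, against 10.7% and 8.32% of all genes. The member shares were near those of all genes, and the median log2 change was -0.13 beside 0.00 over all genes. Without polarized CT replicate 4 the split was 8 lower and 9 higher.

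Solyc02g081190.3, ranked 5, had 9.65, 14.4, 29.5 and 11.4 FPKM in polarized CT and 4.30, 5.64, 4.29 and 2.96 FPKM in polarized LTMH (log2 change -1.91 ± 0.47 SE; edgeR adjusted p = 0.00731). All LTMH libraries lay below all CT libraries. It was the 1 member whose later LTMH step was called against the dip, from 4.83, 10.2, 19.6 and 7.21 FPKM at the free microspore stage (log2 change -1.28 ± 0.47 SE; edgeR adjusted p = 0.0489). Upper-quartile scaling, limma with either pseudocount and the fit with no filter beyond 1 read called 0 members lower at that step. It had the lowest LTMH score of the members, -1.11.

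Solyc03g120860.2, ranked 23, had 6.27, 5.20, 6.74 and 33.6 FPKM in polarized CT and 3.30, 3.39, 4.07 and 3.65 FPKM in LTMH (log2 change -1.88 ± 0.46 SE; edgeR adjusted p = 0.00643). Without CT replicate 4 the log2 change was -0.75 ± 0.24 SE (adjusted p = 0.0347), and a fit of the 8 polarized libraries alone lost the call (adjusted p = 0.0844).

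Solyc09g011650.3, ranked 85, went the other way, with 3.09, 5.99, 7.22 and 12.2 FPKM in polarized CT and 14.8, 17.4, 20.4 and 14.1 FPKM in LTMH (log2 change 1.21 ± 0.27 SE; edgeR adjusted p = 0.00345). No LTMH library overlapped the CT libraries. Its heat changes at the tetrad and free microspore stage were -0.56 ± 0.28 and -0.15 ± 0.28 (SE) and were not called.

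**Figure D5:**
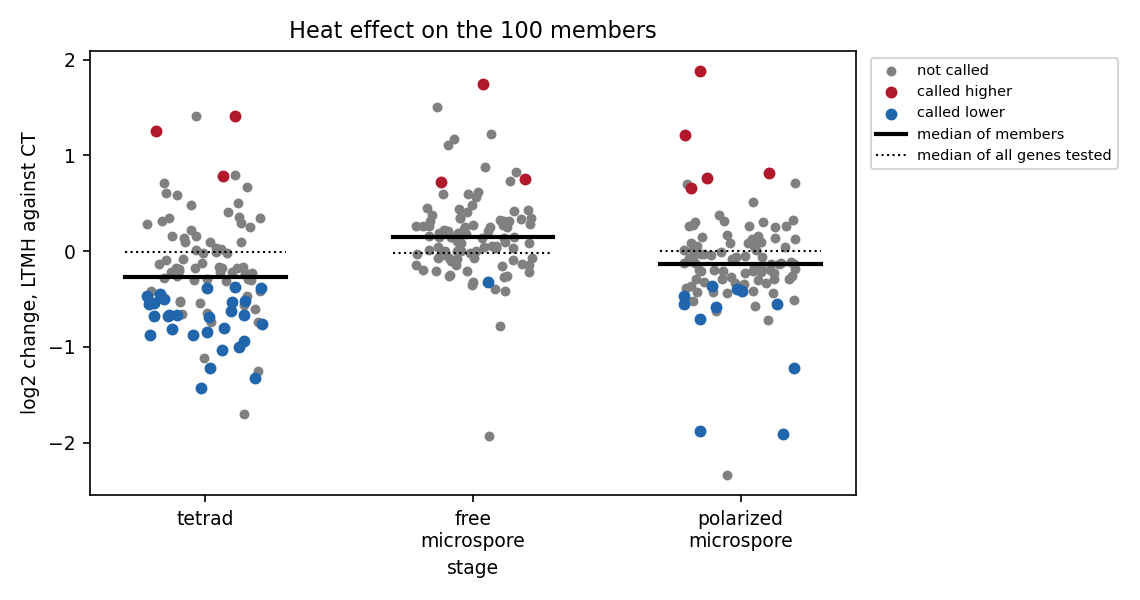
Each point is a member and gives its log2 change in LTMH against CT at a stage (horizontal spread within a stage has no meaning), with called members coloured, a solid line at the median of members and a dotted line at the median of all genes tested. The member medians are -0.27, 0.15 and -0.13 in stage order, and the dotted lines lie within 0.02 of 0.

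Across stages, 41 members had a heat call at 1 or more stages, against 35.1% of all genes, and 59 had none (64.9%). Of the 41, 32 were called at 1 stage, 7 at 2 stages and 2 at 3 stages, and the shares over all genes follow for each combination of stages. At all 3 stages, 1 member was called higher and 1 lower, against 1.75% and 1.92% of all genes. The polarized stage alone gave 3 higher and 4 lower (4.52% and 5.83%), and the free microspore stage alone gave 1 higher (0.849%). The tetrad stage alone gave 22 lower and 2 higher members, against 8.39% and 4.58% of all genes. Another 6 were called lower at both the tetrad and the polarized stage but not between them (1.64%). The free microspore and polarized stages together gave 1 higher member (0.803%).

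Whether heat acted differently from stage to stage was tested in the same edgeR fit. Between the free microspore and the tetrad stage it was called for 0 members, and between the polarized and the free microspore stage also for 0, as for 0.00% of all genes in either direction. At an unadjusted p under 0.05, the first of these differences was positive in 39 members and negative in 1, and the second was positive in 1 and negative in 8. Between the polarized and the tetrad stage, 8 members were called with the more positive heat effect at the polarized stage (2.71% of all genes) and 0 the other way (1.38%), where 4 had an unadjusted p under 0.05. These differences share the CT libraries that chose the members, and no other tool was run on them. The unadjusted counts stand without the share over all genes, so nothing is read from them.

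Length and chromosome number, which the rule did not use, are set beside those of all eligible genes. Gene lengths recovered from counts and FPKM had a median of 1732 bases (168 to 7274) over the members and 1636 bases over the eligible genes. Numbers 01 to 12 after the prefix Solyc, which name the chromosome in tomato identifiers, were all represented. The most frequent was 03 with 15.0% of members and 10.5% of eligible genes, followed by 01 with 14% and 12.8%. No promoter or protein sequence could be tied to an identifier, and none is shown.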

How the data were processed

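Anther mRNA was sequenced in 24 libraries of 6 groups. The authors deposited raw read counts per gene and FPKM values for the same libraries, and FPKM carries no correction for composition. TopHat2 2.0.12 and HTSeq 0.6.1 were used, per the submitters' processing notes. Genome build, annotation and strand setting were not given in the sources used here, so overlapping and near-identical genes are uncertain. Members and lists were chosen with earlier results of these data known.

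Levels are FPKM as deposited. For tests, edgeR 4.0.16 in R 4.3.3 was run on the deposited counts (6 groups, TMM, filterByExpr with minimum count 10, robust quasi-likelihood, 18 residual degrees of freedom), after the script was tested on simulated data. Adjusted p-values are Benjamini-Hochberg over 21429 genes. All 100 members passed the filter. Standard errors come from the F statistic. Position used log2 CPM (prior count 2). Alternatives used DESeq2 1.42.0 and limma 3.58.1 (pseudocounts 1 and 0.1), other scalings, filters, lists and left-out libraries. Named members were the 2 highest scores and, per comparison, up to 2 called members per direction with the largest change, a mean of at least 1 CPM and no overlap between groups, plus the pair added after the data were seen. Replicate numbers were not used to pair libraries.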

Additional observations from a re-analysis of the deposited data

Results flagged for a closer look

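The 16 named members and the member median were examined in each of the 6 groups of 4 libraries. In 9 of these combinations 1 library stood far from the other 3, where chance gives about 1 in 20. Over all members this was so for 39 of 600 combinations of member and group (6.50%), 11 of them in polarized CT replicate 4. That library was the high one for Solyc01g104100.3 (141 FPKM), Solyc10g085640.1 (48.2 FPKM), Solyc07g064450.3 (41.2 FPKM), Solyc03g120860.2 (33.6 FPKM) and Solyc02g084600.3 (14.3 FPKM). What set it apart was not tested. Free microspore CT replicate 2 was high for Solyc10g085640.1 (10.2 FPKM), tetrad LTMH replicate 2 for Solyc11g011400.2 (7.42 FPKM) and free microspore LTMH replicate 4 for Solyc09g091430.3 (41.5 FPKM). Polarized LTMH replicate 4 was low for Solyc03g117600.3 (42.3 FPKM).

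The heat effect differed between the polarized and the tetrad stage for a pair of named members, out of 8 members for which this difference was called. The 2 differences that involve the free microspore stage were called for 0 members in edgeR. At an unadjusted p under 0.05, free microspore minus tetrad gave 39 positive and 1 negative, and polarized minus free microspore gave 1 positive and 8 negative. Nothing is read from these unadjusted counts. They share the CT libraries that chose the members and stand without the share over all genes. The polarized minus tetrad difference of log2 changes was 1.93 ± 0.37 SE for Solyc03g117600.3 (edgeR adjusted p = 0.00901), which was lower in all 4 tetrad LTMH libraries than in any tetrad CT library. It was 1.77 ± 0.38 SE for Solyc09g011650.3 (edgeR adjusted p = 0.0146), which was higher in all 4 polarized LTMH libraries than in any polarized CT library.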

How the results depend on the processing

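Counts below are called members as a percent of the list, without the share over all genes in the same setting. A fit of only the groups compared gave 20% at the tetrad stage (32% as reported) and 2% at the free microspore stage (4%). The free microspore share was also 2% with a minimum of 1 FPKM and for the 50 highest scores. The dip under LTMH (12%) became 19% with DESeq2, 7% with a minimum of 1 FPKM and 7.50% for the 200 highest scores. Leaving out 1 library, from the fit or from the choice of members, gave 22% to 35% at the tetrad, 2% to 8% at the free microspore and 11% to 17% at the polarized stage, 6% to 20% for the LTMH dip and 42% to 54% for the outer stages in LTMH (46% as reported). The other settings stayed within 1.5 times of these counts. With the replicate block the shares were 34%, 4%, 17%, 12% and 45% in the same order. Same-numbered libraries correlated above 0.1 in 15 of 60 pairs (-0.38 to 0.49). The main fit did not use the numbers as pairs, and these correlations cannot exclude a pairing. No named member changed direction. The cause of these shifts was not tested. Scores based on 4 libraries are fragile where 1 library is high, and lists made under other settings of the rule shared 65% to 96% of 100 genes with the members.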
